A study of Mus musculus with 2 samples.

Results

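The sodium pump subunits and FXYD regulators examined here were 7 genes: the beta subunits Atp1b1, Atp1b2 and Atp1b3 and the FXYD proteins Fxyd1, Fxyd2, Fxyd6 and Fxyd7. They were taken by symbol from the gene rows of both count matrices, and all 7 had a row among the 32285 genes. The matrices come from droplet single-cell RNA sequencing of mouse inner ear tissue, which the labels call sensory epithelium. Each group was 1 library made from 5 pooled CBA/CaJ mice aged 4 to 6 weeks. In the AAV-Isl1 library, the ears had been given an adeno-associated virus that carries Isl1, which encodes a LIM homeodomain protein of developing neurons and sensory cells, before noise of 105 dB at 1 to 20 kHz for 2 h. The noise-only library was made from the untreated opposite ears of the same mice, which went through the same noise. Tissue of both groups was taken 2 days after the noise, so no library without noise enters any comparison. The promoter and capsid of the virus are not given in the sources used here, and which cells it reached was not measured.

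The noise-only matrix held 21068 barcodes and 38330528 UMIs, and the AAV-Isl1 matrix held 24209 barcodes and 40268563 UMIs. A UMI (unique molecular identifier) stands for 1 captured mRNA molecule. Both barcode numbers lie far above the about 1600 cells that the labels say were loaded, and 145 barcodes occur in both libraries. After filters, 18657 and 21769 barcodes with median depths of 1046 and 1084 UMIs were kept, and they are called cells below. Isl1 itself had 2647 noise-only and 4074 AAV-Isl1 UMIs, or 79.3 and 113 CPM, the share of all UMIs scaled to the usual common total. Whether RNA of the virus is counted under the Isl1 row was not tested. By their markers the libraries held much besides sensory epithelium. Hair cell-like cells numbered 91 and 328 and cochlear non-sensory epithelium-like cells 974 and 878, while Schwann or satellite glia-like cells made up 35.1% of the noise-only cells and 20.1% of the AAV-Isl1 cells. With 1 library per group there is no replicate and no test between the groups. All intervals given are exact 95% intervals that cover counting error only, and every difference is between these libraries.

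The sodium pump exports sodium and imports potassium across the plasma membrane at the cost of ATP. Its alpha subunit carries out the transport, its beta subunit brings alpha to the membrane and shapes its affinity for potassium, and a small FXYD protein can bind the complex and tune its kinetics. In the cochlea the pump is best known in the stria vascularis and in spiral ligament fibrocytes, which circulate potassium and sustain the endocochlear potential. In neurons and glia it restores the ion gradients after firing and clears potassium.

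All 7 genes are annotated as protein coding in GENCODE vM21 on GRCm38. Atp1b1 lies at chr1:164437109-164458355 on the minus strand and overlaps Nme7 on the opposite strand. Atp1b2 lies at chr11:69599736-69605942 and Atp1b3 at chr9:96332655-96364442, both on the minus strand. The FXYD genes lie in pairs. Fxyd6 at chr9:45370185-45396159 and Fxyd2 at chr9:45399669-45410278, both on the plus strand, are 3509 bases apart. Fxyd7 at chr7:31042513-31051467 and Fxyd1 at chr7:31051678-31057199, both on the minus strand, are 210 bases apart. The RefSeq promoter table for GRCm38.p6 holds 4 of the 7 genes (Atp1b1, Atp1b3, Fxyd1 and Fxyd6). The 250 bases before the start are shown for 3 of them: Atp1b1 and Atp1b3, which between them led the beta UMIs of nearly all cell populations, and Fxyd6, which differed between the libraries in the most populations. For Atp1b3, which has more than 1 RefSeq start, the entry listed first is shown, and its start lies just inside the GENCODE gene. Capitals mark matches, on either strand, to 7 motifs, namely the TATA box TATAAA and its variant TATATA, the GC box GGGCGG, the estrogen-related receptor motif AAGGTCA, the E box CAGCTG, the SOX core AACAAT and the CCAAT box.
Atp1b1, chr1:164458356-164458605, minus strand: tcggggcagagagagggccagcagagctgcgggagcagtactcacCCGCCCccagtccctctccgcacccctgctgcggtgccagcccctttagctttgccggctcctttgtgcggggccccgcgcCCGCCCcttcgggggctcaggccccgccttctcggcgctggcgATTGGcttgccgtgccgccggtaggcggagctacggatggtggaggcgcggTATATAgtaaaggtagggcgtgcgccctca
Atp1b3, chr9:96364432-96364681, minus strand: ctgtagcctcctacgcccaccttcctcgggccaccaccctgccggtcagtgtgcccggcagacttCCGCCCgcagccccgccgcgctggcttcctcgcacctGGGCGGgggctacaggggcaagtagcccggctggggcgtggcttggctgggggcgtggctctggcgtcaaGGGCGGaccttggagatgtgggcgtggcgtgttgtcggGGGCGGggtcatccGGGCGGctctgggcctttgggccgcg
Fxyd6, chr9:45369935-45370184, plus strand: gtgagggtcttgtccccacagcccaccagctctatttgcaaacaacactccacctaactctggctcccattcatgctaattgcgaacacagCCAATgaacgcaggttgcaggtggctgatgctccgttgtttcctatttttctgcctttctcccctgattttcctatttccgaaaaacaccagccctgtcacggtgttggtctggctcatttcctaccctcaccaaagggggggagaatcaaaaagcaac
The windows differ in makeup. The Atp1b1 window has a GC content of 70.4%, with TATATA starting 30 bases before the start, 2 GC boxes and a CCAAT match. The Atp1b3 window has a GC content of 73.6% and holds 5 GC boxes and no match to either TATA form. The Fxyd6 window has a GC content of 50.4% and a single CCAAT match. Of all 32851 promoters in the table, with a median GC content of 52.4%, 5.25% held the TATATA form, 12.4% the TATAAA form, 32.7% a GC box, 33.8% a CCAAT box, 13.001% the E box, 9.42% the SOX core and 4.08% the estrogen-related receptor motif. No 2 motifs overlap in the windows shown. The Fxyd1 window (57.2% GC) held none of the 7. These matches describe letters in the windows and nothing about the factors.

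Cells of both libraries were clustered together on variable genes from which every Atp1, Fxyd and Isl1 gene had been left out, so that the members did not shape the clusters. Clusters were named from marker genes, with "-like" because the names rest on markers alone. In all, 18 populations were compared, 10 named and 8 known by number. The named ones were Schwann or satellite glia-like (6554 noise-only and 4379 AAV-Isl1 cells), fibrocyte or mesenchymal-like (3272 and 3259), stria intermediate cell-like (1084 and 1622), endothelial-like (1149 and 1259), pericyte or smooth muscle-like (1128 and 999), cochlear non-sensory epithelium-like (974 and 878), osteoblast or osteocyte-like (641 and 622), macrophage-like (493 and 907), stria marginal or dark cell-like (391 and 532) and erythroid-like (226 and 799). The numbered ones are cluster 7 (led by Slc6a13), clusters 8 and 20, in which 25 and 21 of 33 neuron markers were raised, cluster 13 (Krtdap), cluster 14 (Them5 and Igfbp6), cluster 16 (Igkc), cluster 17 (Crhbp and Vmo1) and cluster 25 (Nkx2-9 and Mog). Cluster 8 is not named as neurons because none of its 10 leading genes was a listed neuron marker and 1 was a marker of another class. Cluster 20 met the naming rule for neurons and is given by number beside it, a choice made after the clusters were seen. They were the deepest, with medians of 10800 and 6803.5 UMIs per cell in cluster 8 and 9360 and 6003 in cluster 20. Hair cell-like cells (91 and 328) fell below the limit of 100 cells per library and are given as an added set.

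Summed over all kept cells, Atp1b1 was the most abundant member and Fxyd7 the least. Atp1b1, a beta subunit of broad use, stood at 1241 and 1299.9 CPM in the noise-only and AAV-Isl1 libraries, and this order of libraries holds for every pair of values below. Atp1b3, another broadly used beta subunit, stood at 478 and 441 CPM, and Atp1b2, first described as an adhesion molecule on glia, at 144 and 136 CPM. These differed little between libraries, with ratios of AAV-Isl1 over noise-only of 1.05, interval 1.03 to 1.06, 0.923 and 0.946. Among the regulators, Fxyd6 (phosphohippolin) stood at 636 and 502 CPM and Fxyd1 (phospholemman) at 429 and 345 CPM. Fxyd2, the gamma subunit known from kidney, stood at 53.2 and 44.6 CPM, and Fxyd7, known from brain, at 8.72 and 11.9 CPM. Fxyd6 was lower in the AAV-Isl1 library (ratio 0.789, interval 0.773 to 0.805), and so was Fxyd1 (ratio 0.805), while Fxyd7 was higher (ratio 1.36, interval 1.17 to 1.59). A gene is called here when it has at least 50 UMIs over both libraries and a ratio past 1.5-fold in either direction. Over all kept cells 0 of 7 members were called, where 8.24% of 15602 measured genes were. In such sums, fewer cells of a type and less RNA per cell cannot be told apart, and the share of Schwann-like cells, the main carriers of Fxyd6 and Fxyd1, differed between the libraries as given above. With the cell class makeup of both libraries set equal, the ratio of Fxyd6 was 0.935, of Fxyd1 0.928, of Fxyd2 0.959, of Atp1b1 1.01 and of Atp1b2 0.948. Fxyd7 (0.928) and Atp1b3 (1.01) then lay on the other side of 1.

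The beta subunits divided the populations into 3 kinds. Of the 18 populations, Atp1b1 took the most beta UMIs in 9, Atp1b3 in 8 and Atp1b2 in 1, and the leader was the same gene in both libraries in all 18. Clusters 8 and 20 were nearly Atp1b1 alone, and it took most of the beta UMIs of intermediate cell-like cells. Its share of the beta UMIs was 93.8 and 92.5% in cluster 8, 97.4 and 96.99% in cluster 20 and 78.8 and 79.5% in intermediate cell-like cells, with hair cell-like cells at 81.01 and 84.7%. Atp1b3 led in Schwann-like, endothelial-like, macrophage-like and osteoblast-like cells and in clusters 7, 14, 16 and 25. It took 82.2 and 77.4% in Schwann-like cells, 89.5 and 83.6% in cluster 25, 81.4 and 74.3% in endothelial-like cells and 71.8 and 68.6% in cluster 7. Marginal cell-like cells stood alone in that Atp1b2 led there, with 72.4 and 76.5% of the beta UMIs beside 17.9 and 13.99% for Atp1b1. Pericyte or smooth muscle-like cells were the most mixed, with Atp1b1 at 44.7 and 37.4%, Atp1b2 at 34.96 and 31.5% and Atp1b3 at 20.3 and 31.04%. Fibrocyte-like cells split between Atp1b1 (54.3 and 51.7%) and Atp1b3 (39.1 and 43.6%), and cluster 17 between Atp1b1 (55.8 and 59.2%) and Atp1b2 (35.7 and 27.3%). The leader changed in 1 of 36 values when the lowest level of each gene in any population was subtracted as an estimate of free RNA, with Atp1b2 then leading in the AAV-Isl1 pericyte-like cells.

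**Figure D1:**
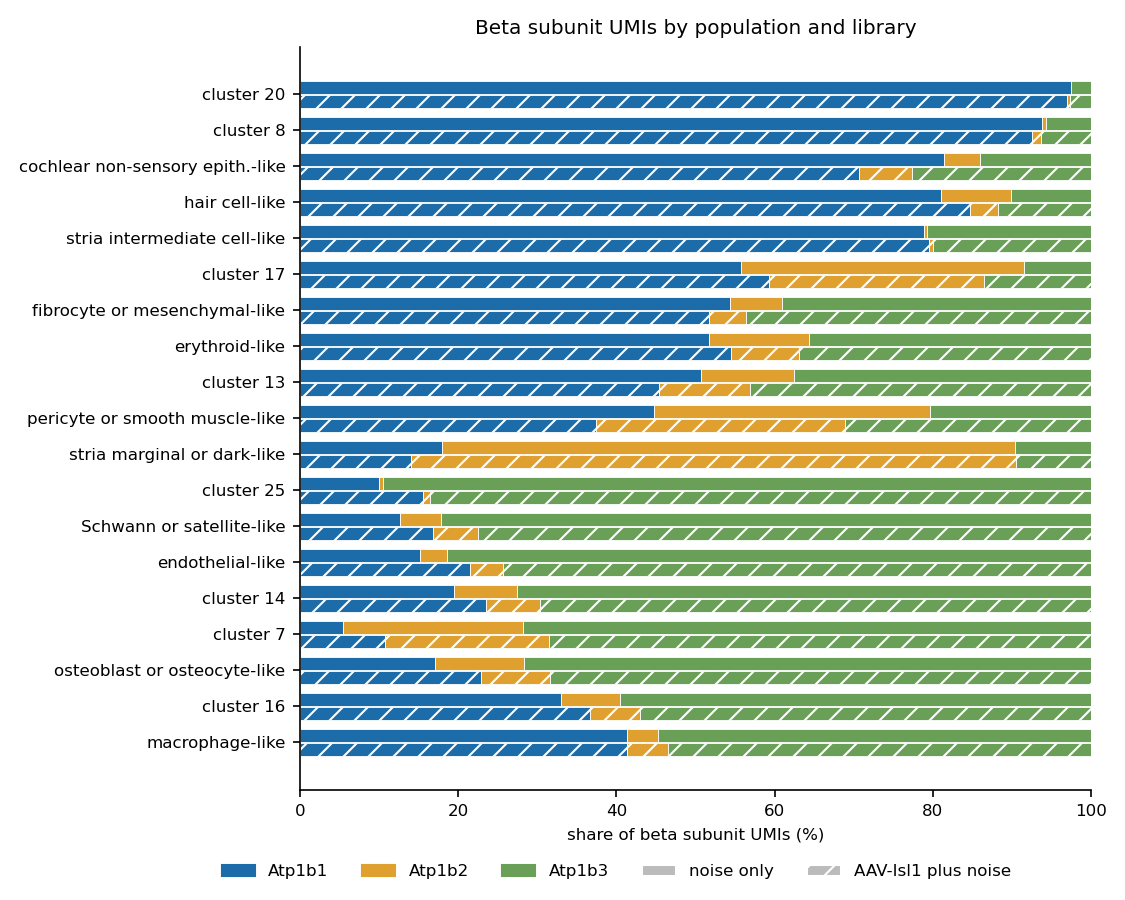
Share of beta subunit UMIs (percent, horizontal axis) taken by Atp1b1, Atp1b2 and Atp1b3 in each population, with 1 bar per library. The bars of the noise-only and AAV-Isl1 libraries have the same leading subunit in all 18 populations, and Atp1b2 leads only in marginal cell-like cells.

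The level of Atp1b1 (in CPM of the population, a scale on which genes can be set side by side because each 3' UMI counts 1 molecule) was highest in intermediate cell-like cells, at 5906 and 5859 CPM. Clusters 20 and 8 followed at 2654 and 2537 CPM and at 2251 and 2171 CPM. The ranges over the libraries of these 3 populations did not overlap. Further down, hair cell-like cells held 787 and 908 CPM, fibrocyte-like cells 723 and 731 CPM and cochlear epithelium-like cells 775 and 659 CPM, of which the last overlapped the fibrocyte-like cells. The lowest level was in cluster 7, at 54.5 and 84.98 CPM, which overlapped cluster 25 above it.

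Atp1b2 had the narrowest pattern of the beta subunits. It stood at 2487 and 2514 CPM in marginal cell-like cells, far above the next population, cluster 17, at 439 and 337 CPM. Pericyte-like cells held 262 and 263 CPM and cluster 7 held 228 and 163 CPM. At the low end, cluster 20 held 3.09 and 8.19 CPM. Its place in marginal cell-like cells did not hang on the library, since the ratio there was 1.01, interval 0.956 to 1.07.

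Atp1b3 was the most evenly spread beta subunit. Intermediate cell-like cells held the most, 1550.3 and 1475 CPM, though Atp1b1 outnumbered it there. Schwann-like cells held 926 and 890.1 CPM, cluster 14 held 693 and 662 CPM and cluster 7 held 721 and 541 CPM. In fibrocyte-like cells it stood at 519.95 and 618 CPM. It was lowest in cluster 20, at 67.2 and 70.5 CPM, where Atp1b1 made up nearly all beta UMIs.

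The FXYD regulators varied more than the beta subunits, and the leader, counted with Fxyd3, Fxyd4 and Fxyd5 from the same list, differed between the libraries in some populations. Fxyd6 led in 8 noise-only and 6 AAV-Isl1 populations, 6 of them shared. Fxyd1 led in 3 and 3, Fxyd5 (dysadherin) in 4 and 4, Fxyd3 in 3 and 4 and Fxyd2 in 0 and 1. Schwann-like cells paired Fxyd6 (52.8 and 51.3% of FXYD UMIs) with Fxyd1 (28.2 and 26.1%). Cluster 8 held Fxyd6 (61.2 and 56.9%), while cluster 20 held a low and mixed supply of Fxyd6 (31.8 and 34.3%), Fxyd7 (26.3 and 13.3%) and Fxyd1 (21.7 and 22.8%). Intermediate cell-like cells were led by Fxyd3 (72.9 and 69.8%), with Fxyd1 second (23.3 and 23.9%). Marginal cell-like cells had UMIs of 4 regulators: Fxyd3 (43.4 and 30.3%), Fxyd2 (25.02 and 34.8%), Fxyd1 (18.1 and 13.6%) and Fxyd6 (10.8 and 19.4%). The leader passed from Fxyd3 to Fxyd2 between the libraries. Their Fxyd1 (252 and 206 CPM) and Fxyd6 (151 and 295 CPM) lay below the levels in erythroid-like cells. Those cells, used below as a background of free RNA, held Fxyd1 at 341 and 271 CPM and Fxyd6 at 462 and 337 CPM. Pericyte-like cells were led by Fxyd1 (72.2 and 50.9%), and fibrocyte-like cells held nearly as much Fxyd6 (32.1 and 32.4%) as Fxyd1 (31.8 and 31.4%), with Fxyd2 at 22.7 and 15.9%. Fibrocyte-like Fxyd6 (305 and 335 CPM) did not exceed the erythroid-like level, and Fxyd1 (302 and 325 CPM) exceeded it only in the AAV-Isl1 library. In cochlear epithelium-like cells the leader passed from Fxyd6 (54.4 and 38.1%) to Fxyd3 (27.9 and 42.1%). Other settings, which gave 18 to 36 values each, changed the FXYD leader in 0 to 5 of them, most often when the lowest level of each gene was subtracted.

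Fxyd6 had the highest level of any FXYD member in a population. Cluster 14 held 2332 and 2043 CPM and Schwann-like cells 2264 and 1987 CPM, and these ranges overlapped. Cochlear epithelium-like cells followed at 1062 and 668 CPM, then cluster 17 at 473 and 423 CPM and cluster 8 at 413 and 381 CPM. Cluster 20 was lowest at 40.2 and 56.3 CPM, so clusters 8 and 20 stood far apart for this gene. Fxyd1 was highest in Schwann-like cells, at 1212 and 1009 CPM, and in intermediate cell-like cells, at 1006 and 1029.9 CPM, which overlapped, followed by pericyte-like cells at 682 and 687 CPM and osteoblast-like cells at 599 and 621 CPM. It was lowest in cluster 20, at 27.4 and 37.4 CPM. Fxyd2 was confined in the main to marginal cell-like cells (348 and 528 CPM) and fibrocyte-like cells (215 and 165 CPM). The next populations, erythroid-like and intermediate cell-like cells, held 33.2 and 41.1 CPM and 26.97 and 29.2 CPM, and those below overlapped each other. Most erythroid-like Fxyd2 came from 5 cells of each library, with 17 of 19 and 51 of 66 UMIs. Fxyd7 was low everywhere. Its highest levels were in cluster 20 (33.2 and 21.7 CPM) and cluster 8 (12.2 and 35.1 CPM), which overlapped, and pericyte-like cells followed at 11.2 and 8.07 CPM. Of the neighbours on the chromosome, Fxyd6 and Fxyd2, and likewise Fxyd1 and Fxyd7, were highest in different compared populations. Smaller sets described below were rich in both genes of a pair. These were a set led by Fabp7 for Fxyd1 and Fxyd7, and some cells of cluster 22 for Fxyd2 and Fxyd6.

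**Figure D2:**
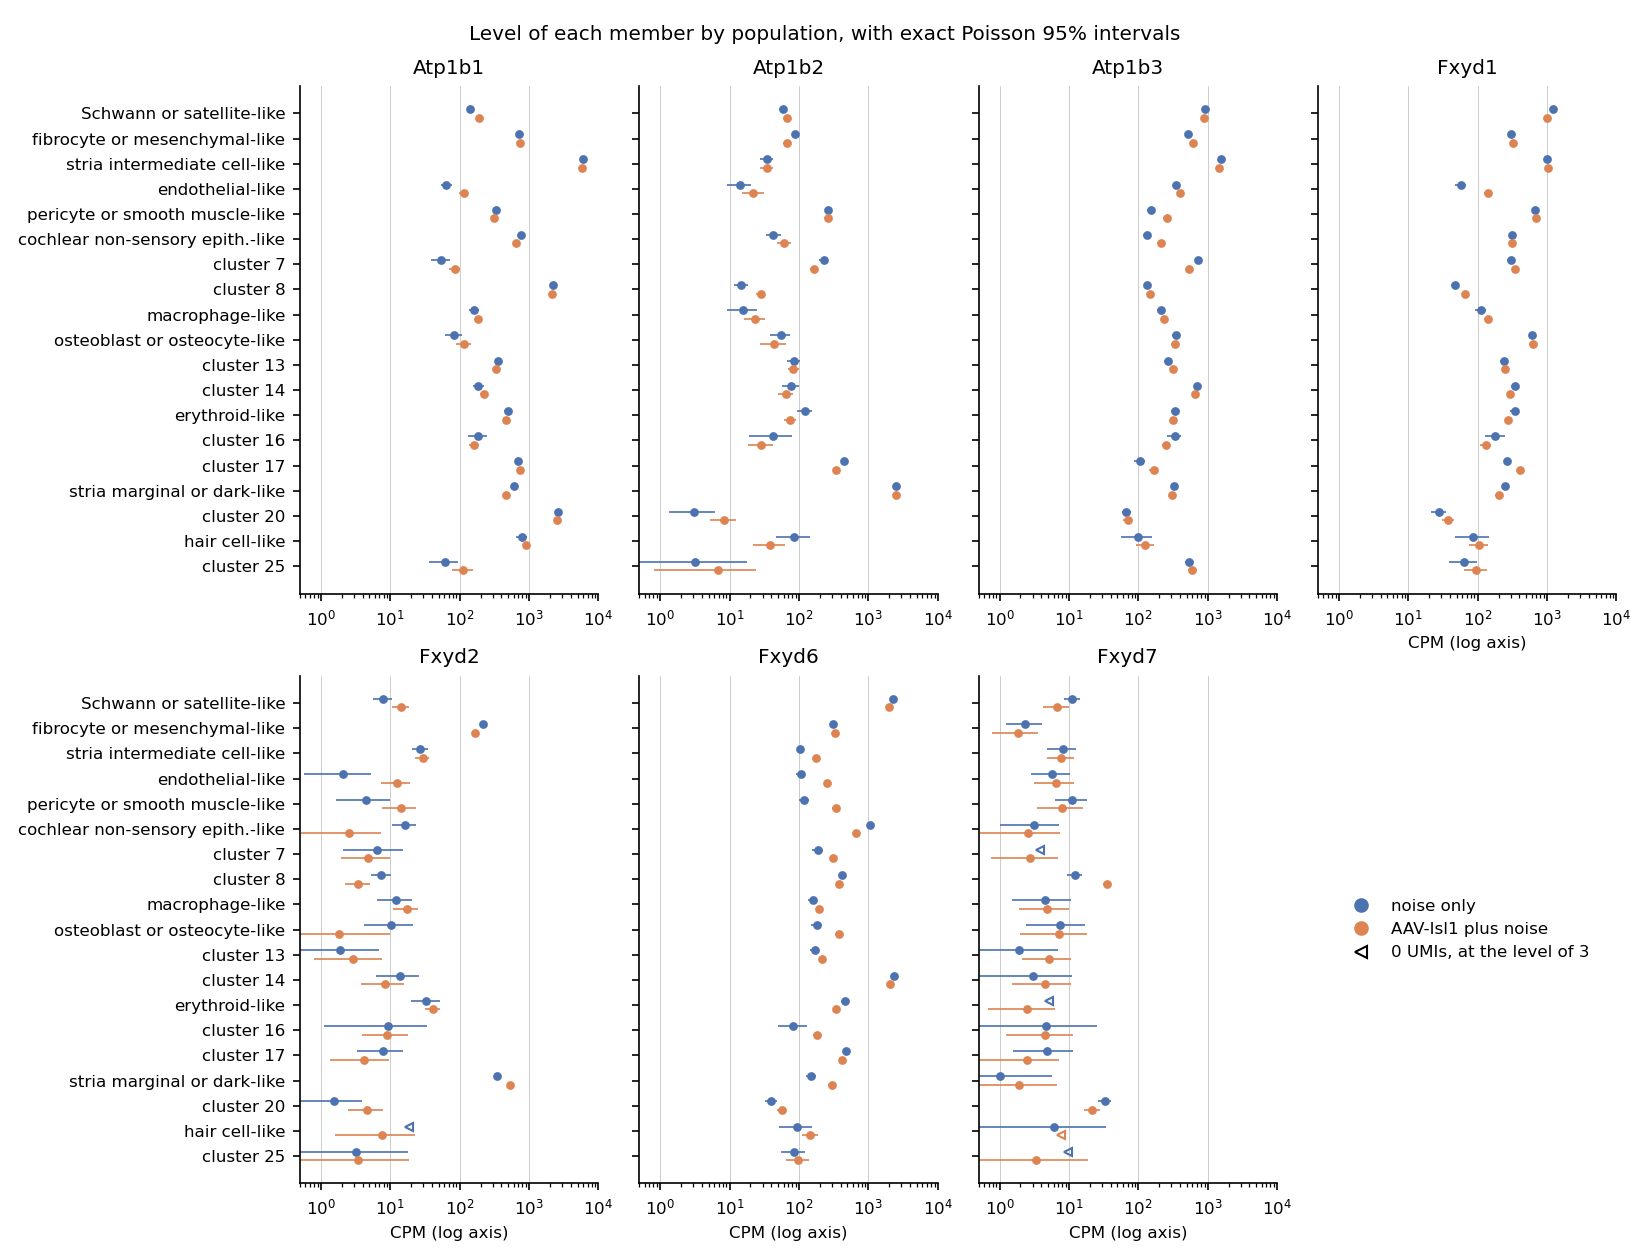
Level of each of the 7 members (CPM of the population, log scale) in each population, with 1 point per library and 95% counting intervals. Open triangles stand for 0 UMIs, drawn at the level of 3. Atp1b1 reaches 5906 and 5859 CPM in intermediate cell-like cells, Atp1b2 2487 and 2514 CPM in marginal cell-like cells, and Fxyd7 stays lowest of the 7 in most of them.

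The shares of cells with a UMI gave the same picture at the level of cells. Each cell was thinned to 1000 UMIs, and cells with fewer were left out. Erythroid-like cells (median depth 2348 and 1953 UMIs) and macrophage-like cells (1866 and 1392) serve as a background of free RNA. An Atp1b1 UMI was found in 97.05 and 97.8% of intermediate cell-like cells (median depth 2011.5 and 1462.5 UMIs), 88.8 and 85.8% of cluster 8 and 91.5 and 90.9% of cluster 20. The background for Atp1b1 was 17.8 and 18.7% in erythroid-like and 5.37 and 9.06% in macrophage-like cells. The share in Schwann-like cells (11.1 and 13.7%) lay between these. The erythroid-like cells include a small set with much Atp1b1, described below, so they are not a clean background for this gene. Without thinning the intermediate cell-like share was 95.9 and 97.3%. An Atp1b2 UMI was found in 77.4 and 80.4% of marginal cell-like cells (unthinned 74.9 and 84.02%), against 5.45 and 4.65% and 1.28 and 2.05% in the same background cells. An Atp1b3 UMI was found in 58.1 and 57.5% of Schwann-like cells (unthinned 48.8 and 45.9% at median depths of 704 and 662 UMIs), against 24.8 and 25.04% and 19.4 and 18.9%. 

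The FXYD members reached their highest shares in different populations. A Fxyd6 UMI was found in 86.7 and 83.2% of Schwann-like cells and 89.3 and 83.3% of cluster 14. Its background was high, at 33.2 and 21.7% and 11.3 and 12.4%, and cluster 20 lay below it at 4.59 and 5.79%. Without thinning the Schwann-like share of Fxyd6 was 77.3 and 72.4% and the background 46.9 and 35.2% and 16.6 and 17.1%. A Fxyd1 UMI was found in 58.5 and 55.99% of Schwann-like, 62.4 and 61.8% of intermediate cell-like and 52.9 and 51.3% of pericyte-like cells, against 28.7 and 20.99% and 7.93 and 9.65%. Fxyd2 reached 12.8 and 15.8% of marginal cell-like cells (unthinned 16.1 and 19.4%), against 0.99 and 1.499% and 0.767 and 1.32%. Fxyd7 reached 0.422 and 1.82% of cluster 8 and 1.77 and 0.445% of cluster 20 against 0 and 0.3% and 1.02 and 0.585%, so no order is read from these shares of Fxyd7, whose UMIs lay in few cells, as described below. In the pairs given next, the members met in the same cells about as often as their shares alone give. This does not extend to every pair, since in cluster 22, described below, the cells rich in Fxyd2 held more Atp1b1 and Fxyd6. For Atp1b3 with Fxyd6 in Schwann-like cells, 52.1 and 48.99% of cells held a UMI of each, where independent detection at the same shares gives 50.4 and 47.9%. For Atp1b2 with Fxyd2 in marginal cell-like cells, 9.72 and 12.9% of cells held a UMI of each, where independent detection at the same shares gives 9.95 and 12.7%.

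Within the populations, the treated over noise-only ratios differed more than over all cells. Of 126 pairs of member and population, 95 had at least 50 UMIs, and 25 of these were called, 20 higher and 5 lower in the AAV-Isl1 library. Over all genes of the same populations 9.73% of 114653 measured pairs were called, 6.12% higher and 3.61% lower. Fxyd6 had the most calls, 7 higher and 1 lower in 18 populations. Atp1b1 was called higher in 3 of 18 and Atp1b3 in 3 of 18. Atp1b2 was called higher in 2 and lower in 1 of the 15 populations where it was measured, and Fxyd1 higher in 2 of 17. Fxyd2 was measured in 6 populations, with 2 called higher and 1 lower, and Fxyd7 in 3, with 1 called higher and 2 lower. The counting interval lay above 1 in 32 of the 95 and below 1 in 21. Past 2-fold there were 7 of 95, where 2.39% of all genes were, and with at least 200 UMIs 16 of 74 were past 1.5-fold, where 3.65% of all genes were. Of the 25 calls, 7 stayed past the fold under every setting that gave a value, 10 settings each but 7 for cluster 17, which had no counterpart with no doublets removed or at other cluster resolutions: Atp1b1 in endothelial-like cells, Fxyd1 in endothelial-like cells and cluster 17, Fxyd6 in cluster 16 and marginal cell-like cells, and Fxyd7 in Schwann-like cells and cluster 8. The other 18 were lost or turned under 1 to 6 settings each. Leaving out the finer set led by Fabp7 was not among these settings, although most of the Fxyd7 gap in Schwann-like cells lay there, as described below.

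Endothelial-like cells held the most members called, 4 of the 5 measured, all higher, where 9.62% of all genes there were called. Atp1b1 stood at 64.5 and 114 CPM (ratio 1.78, interval 1.40 to 2.25). Fxyd1 stood at 56.7 and 139.8 CPM (ratio 2.47, interval 1.95 to 3.14), Fxyd6 at 106 and 251 CPM (ratio 2.38, interval 2.002 to 2.83) and Atp1b2 at 14.04 and 22.1 CPM (ratio 1.58, interval 0.922 to 2.71). Atp1b3, the beta subunit that leads there, was the member not called (345 and 395 CPM). The 4 called members lay below their levels in erythroid-like background cells in both libraries. In macrophage-like background cells Atp1b1 (161 and 183 CPM), Fxyd1 (112 and 142 CPM) and Atp1b2 (15.6 and 23.4 CPM) were higher too. Fxyd6 there (159 and 196 CPM) was higher only in the noise-only library. The Atp1b2 call held under 6 of 10 settings, with a ratio of 1.17 with no doublets removed. The median log2 ratio of the 5 members was 0.83, where that of all genes measured there was -0.02. Markers of other cell types were also higher. The 26 Schwann or satellite glia markers summed to 3879 and 6649 CPM, with 19 of 20 measured markers higher and Matn2 at 0 in the noise-only library, and the 18 intermediate cell markers to 3616 and 7875 CPM, with 8 of 9 measured markers higher and 4 and 3 at 0. Their part in the result was not tested.

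In pericyte or smooth muscle-like cells 2 of 5 members were called, with a background of 11.1%. Fxyd6 stood at 119 and 338 CPM (ratio 2.85, interval 2.35 to 3.46), the widest gap of Fxyd6 in any population, and Atp1b3 at 152 and 259 CPM (ratio 1.70, interval 1.41 to 2.05). The regulator that leads there, Fxyd1, was nearly the same in both libraries (682 and 687 CPM). The class holds cluster 11, with the pericyte gene Rgs5 among its leading genes, and cluster 19, with the smooth muscle gene Myh11. Fxyd6 was higher in both, at 172 and 519 CPM in cluster 11 (ratio 3.02, interval 2.39 to 3.85) and 77.4 and 163 CPM in cluster 19 (ratio 2.10, interval 1.49 to 2.999). Atp1b1 differed more between the clusters than between the libraries, with 153 and 174 CPM in cluster 11 and 479 and 447 CPM in cluster 19. The share of pericyte-like cells with a Fxyd6 UMI was 10.6 and 21.1% (unthinned 9.13 and 17.8%), which does not stand clear of the erythroid-like share of 33.2 and 21.7%.

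Fxyd6 was also called higher in 5 other populations. In cluster 16 it stood at 83.2 and 185 CPM (ratio 2.22, interval 1.36 to 3.84), the only 1 of 4 members called where 26.8% of all genes were. In osteoblast-like cells it stood at 179 and 383 CPM (ratio 2.13, interval 1.70 to 2.69), again the only 1 of 5 (background 11.8%). The direction was the same in marginal or dark cell-like cells, at 151 and 295 CPM (ratio 1.96, interval 1.60 to 2.40). It was also the same in intermediate cell-like cells, at 105 and 175 CPM (ratio 1.67, interval 1.42 to 1.96), where Fxyd6 was the only 1 of 6 called (background 6.66%). In cluster 7 it stood at 185 and 311 CPM (ratio 1.68, interval 1.39 to 2.04), 1 of 2 members called of 5 (background 14.2%). Hair cell-like cells had the same direction with a wide interval (92.2 and 144 CPM, ratio 1.56, interval 0.872 to 2.97). In the populations that carry the most Fxyd6 it was slightly lower instead, with ratios of 0.878, interval 0.852 to 0.905 in Schwann-like cells and 0.876, interval 0.82 to 0.936 in cluster 14. All populations with a call higher thus held far less Fxyd6 than Schwann-like cells. They also lay below the erythroid-like background cells (462 and 337 CPM), apart from osteoblast-like and pericyte-like cells in the AAV-Isl1 library. Of the populations called higher, cluster 16 and intermediate cell-like cells also lay below macrophage-like cells (159 and 196 CPM) in both libraries. The sum of the 26 Schwann or satellite glia markers was higher in the AAV-Isl1 library in 12 of the 17 compared populations other than Schwann-like cells, with medians of 6279 and 7584 CPM. Such a sum is not specific to Schwann-like cells, where it was 38151 and 36945 CPM. It reached 57954 and 53791 CPM in cluster 25 and 27991 and 26665 CPM in macrophage-like cells. In fibrocyte-like cells it was 13431 and 13167 CPM, although 22 of 24 measured markers were higher. In pericyte-like cells the 26 markers summed to 4233 and 7870.03 CPM, with 17 of 18 measured markers higher and none at 0. In osteoblast-like cells they summed to 4091 and 7584 CPM (13 of 13 higher, none at 0) and in marginal cell-like cells to 5280.3 and 6852 CPM (15 of 18 higher, with Ngfr at 0 in both libraries and L1cam at 0 in the AAV-Isl1 library). The sums were 3544 and 4755 CPM in cluster 16 (10 of 12 higher, Fbln2 at 0 in the noise-only and Ngfr in the AAV-Isl1 library), 8350.1 and 9532 CPM in intermediate cell-like cells (15 of 21 higher, none at 0) and 10471 and 10797 CPM in cluster 7 (18 of 19 higher, L1cam at 0 in the noise-only library). The part of these markers in the Fxyd6 ratios was not tested. With no doublets removed the Fxyd6 ratios were 1.37 in pericyte-like, 1.24 in endothelial-like, 1.41 in osteoblast-like and 1.20 in intermediate cell-like cells, all under the fold. When the same percent of cells was removed from both libraries as doublets, the first 3 kept their calls and the intermediate cell-like ratio was 1.43, under the fold.

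**Figure D3:**
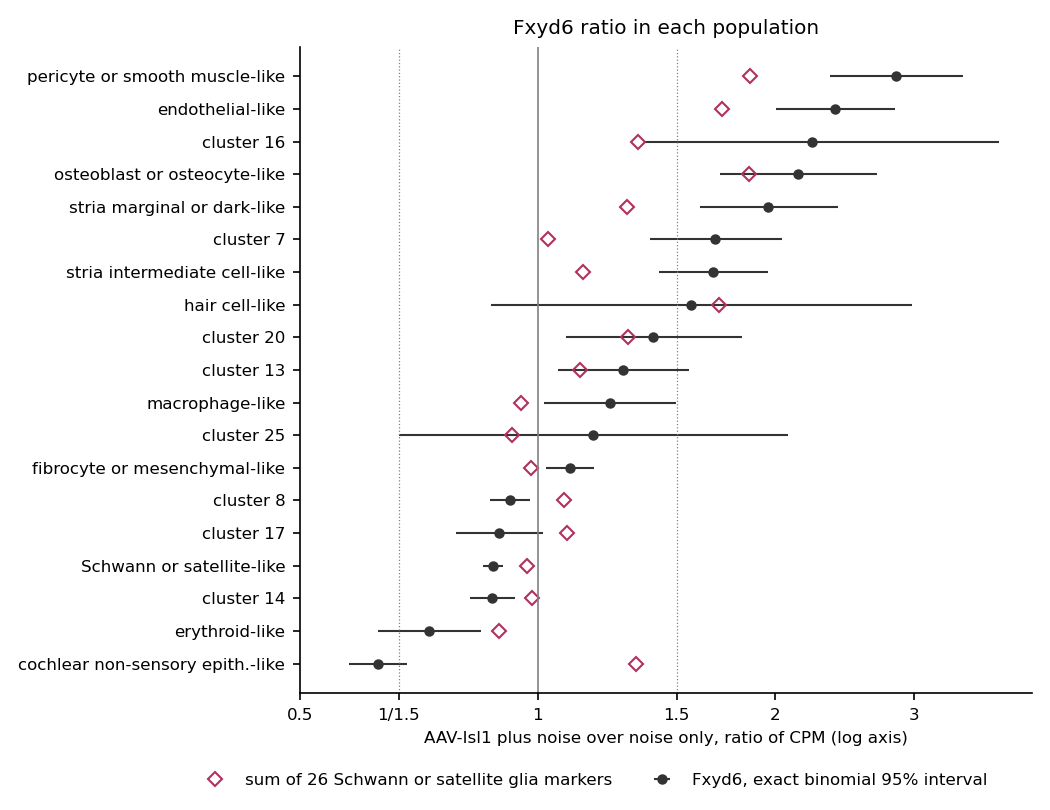
Ratio of Fxyd6 CPM in the AAV-Isl1 library over the noise-only library (log axis) in each population, with 95% counting intervals. Diamonds are the same ratio for the sum of 26 Schwann or satellite glia markers. The 7 populations called higher lie past the dotted line at 1.5, as does the added hair cell-like set. Cochlear epithelium-like cells lie past the line on the lower side.

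Cochlear non-sensory epithelium-like cells, all of cluster 5, were the population with Fxyd6 called lower, at 1062 and 668 CPM (ratio 0.628, interval 0.577 to 0.684). Atp1b3 was called higher there, at 134 and 212 CPM (ratio 1.58, interval 1.31 to 1.91), so 2 of 5 members were called, with a background of 14.8%. Fxyd6 UMIs were found in 50.97 and 40.04% of the cells (unthinned 55.6 and 40.2%). The genes that lead this cluster also differed between the libraries. Epyc stood at 1878 and 984 CPM and Ceacam16 at 2315 and 1275 CPM, while Otol1, which encodes otolin, a protein of otoconia, stood at 92.7 and 351 CPM. Cells with an Otol1 UMI, 60 and 167 in number, held little Fxyd6, 235 and 111 CPM. In the 914 and 711 cells without one, Fxyd6 stood at 1129 and 894 CPM (ratio 0.792, interval 0.726 to 0.864), so the gap was narrower and no longer past the fold. Atp1b3 kept its ratio in those cells, 1.61, interval 1.29 to 1.99. The split by Otol1 was made after these values were seen. The 26 Schwann markers summed to 4955 and 6594 CPM in this population, higher in the AAV-Isl1 library while Fxyd6 was lower. The 18 intermediate cell markers, from the class with the most Atp1b3, summed to 5364 and 8491 CPM (7 of 10 measured markers higher, 1 and 3 at 0). Their part in the Atp1b3 ratio was not tested, and with no doublets removed that ratio was 1.41, under the fold.

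Fibrocyte or mesenchymal-like cells had none of 6 measured members called (background 8.88%), with Atp1b1 at 723 and 731 CPM and Fxyd6 at 305 and 335 CPM. The class joined 5 clusters whose sizes differed between the libraries: cluster 4 (1064 and 1080 cells), cluster 9 (952 and 465, led by Rarres1), cluster 6 (588 and 1045, led by Slc4a11), cluster 21 (387 and 319) and cluster 22 (281 and 350). Clusters 4 and 9 thus held most of the class in the noise-only library, and clusters 4 and 6 in the AAV-Isl1 library. Cluster 6, with the fibrocyte genes Slc4a11 and Otos, carried most Atp1b1, at 2769 and 1569 CPM (ratio 0.567, interval 0.536 to 0.599). Atp1b1 was thus lower in this cluster, a difference that the class as a whole did not show. An Atp1b1 UMI was found in 79.03 and 64.5% of its cells after thinning to 1000 UMIs (unthinned 77.04 and 61.9%). A finer clustering gave a set led by Slc4a11 (408 and 841 cells, 373 and 774 of them from cluster 6) and a set led by Ucma (213 and 260, 213 and 259 of them from cluster 6). In the set led by Slc4a11, Atp1b1 stood at 2886 and 1752 CPM. In the set led by Ucma, Atp1b1 stood at 1879.7 and 587 CPM. Both sets showed Atp1b1 lower, the latter by more. Inside cluster 6 the 18 intermediate cell markers summed to 80659 and 84789.5 CPM and the 26 Schwann markers to 13018 and 12559.9 CPM, which are close to each other between the libraries. The intermediate cell sum is not specific to that class. It was 234428 and 200654 CPM in cluster 7, against 89456 and 85126 CPM in intermediate cell-like cells. The part of these markers in the Atp1b1 ratio was not tested.

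Cluster 22, led by Fat2 and Kcnk2, carried the Fxyd2 of the fibrocyte-like class, at 1237 and 925 CPM (ratio 0.747, interval 0.678 to 0.823). The other 4 clusters of the class ranged from 1.99 to 42.1 CPM. Atp1b1 in cluster 22 stood at 785 and 696 CPM and Fxyd6 at 507 and 468 CPM. A Fxyd2 UMI was found in 23.9 and 12.9% of its cells after thinning (unthinned 28.1 and 16%). The gene was concentrated in few cells. Those with at least 5 Fxyd2 UMIs, a limit set after the values were seen, numbered 54 and 26, or 19.2 and 7.43% of the cluster, and held 95.5 and 90.6% of its Fxyd2 UMIs. These cells also held more Atp1b1, 1503 against 554 CPM in the other cells of the noise-only library and 1447 against 607 CPM in the AAV-Isl1 library. Fxyd6 was likewise higher in them, 1022 against 341 CPM and 1281 against 372 CPM. The genes with the highest fold in them over the other cells of cluster 22 were Kcnk2 (3.81-fold), Scrg1, Gem, Ly6a and Iqgap2.

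**Figure D4:**
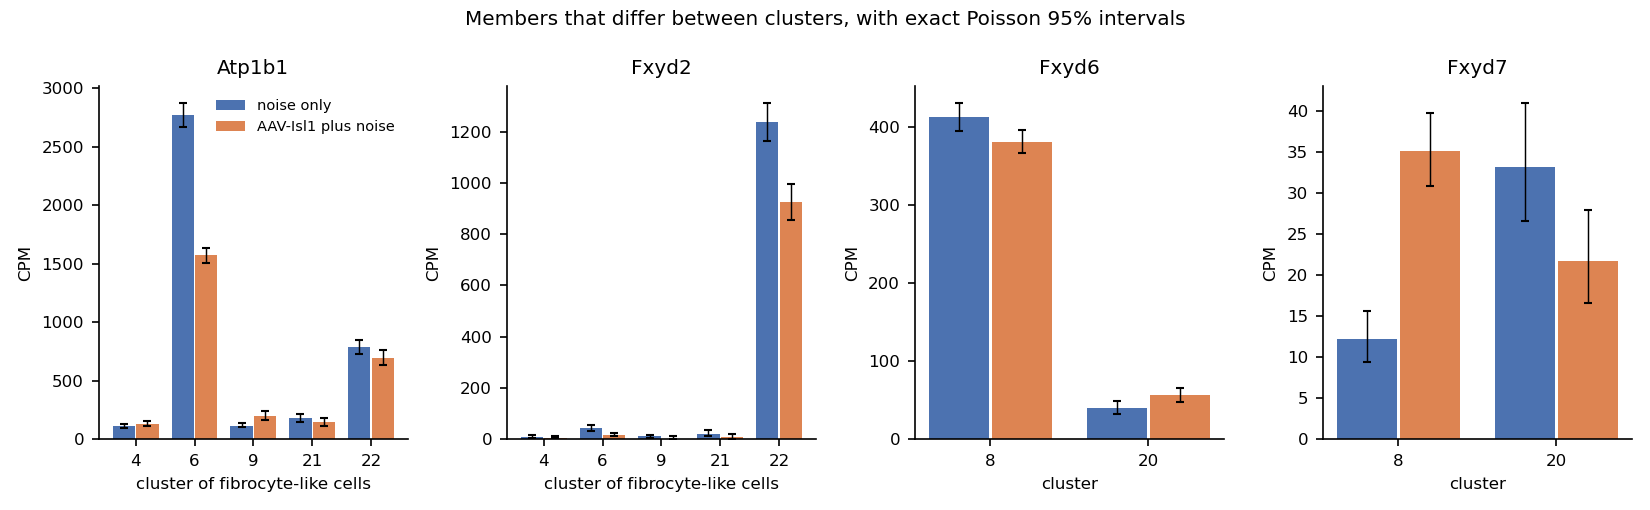
Levels (CPM) of Atp1b1 and Fxyd2 in the 5 clusters joined as fibrocyte or mesenchymal-like, and of Fxyd6 and Fxyd7 in clusters 8 and 20, with 1 bar per library and 95% counting intervals. Atp1b1 lies at 2769 and 1569 CPM in cluster 6, and Fxyd2 at 1237 and 925 CPM in cluster 22 and at or below 42.1 CPM in the other 4. Cluster 8 holds far more Fxyd6 than cluster 20.

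Marginal or dark cell-like cells had 2 of 6 measured members called, both FXYD genes (background 8.35%). Fxyd2 stood at 348 and 528 CPM (ratio 1.52, interval 1.32 to 1.74) and Fxyd6 at 151 and 295 CPM. Atp1b2 (2487 and 2514 CPM) was nearly the same in both libraries, and Atp1b1 stood at 615 and 459.6 CPM (ratio 0.747, interval 0.661 to 0.843). Here too a few cells held most Fxyd2. Cells with at least 5 Fxyd2 UMIs numbered 20 and 45, or 5.12 and 8.46% of the class, and held 77.1 and 81.5% of its Fxyd2 UMIs. No gene was past 4-fold in these cells over the rest of the class. Finer clustering split the class into a set led by Dnase1 (254 and 452 cells) and a set led by a predicted gene (136 and 78 cells). The set led by Dnase1, with Atp1b2 at 2756 and 2637 CPM, held the Fxyd6 gap, 156 and 310.3 CPM, and Fxyd2 at 326 and 499 CPM. The other set had less Atp1b2, at 941 and 915 CPM, and held Fxyd6 at 119 and 94.2 CPM and Fxyd2 at 481 and 929 CPM.

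In cluster 8, 3 of 7 members were called (background 4.79%). Fxyd7 stood at 12.2 and 35.1 CPM (ratio 2.88, interval 2.17 to 3.87) and Atp1b2 at 14.5 and 28.1 CPM (ratio 1.93, interval 1.47 to 2.56), while Fxyd2 was lower, at 7.47 and 3.45 CPM (ratio 0.462, interval 0.265 to 0.791) and 1 cell gave 13 of the 38 UMIs of the noise-only library. In cluster 20 Fxyd7 went the other way, at 33.2 and 21.7 CPM (ratio 0.654, interval 0.463 to 0.919), and was the only 1 of 5 members called there (background 3.99%). The pump subunits that lead these clusters were alike in both libraries, with Atp1b1 ratios of 0.964, interval 0.941 to 0.988 in cluster 8 and 0.956, interval 0.925 to 0.988 in cluster 20. As a mean over cells, which gives every cell the same weight, the Fxyd7 ratio in cluster 20 was 1.496, so its direction depends on the weighting. Fxyd7 came from few cells. In the 2 clusters together, 11 of 772 noise-only cells and 23 of 1493 AAV-Isl1 cells held at least 5 Fxyd7 UMIs, up to 23 and 30 in 1 cell. These were 1.42 and 1.54% of the cells, a like share, and held 92.6 and 81.97% of the Fxyd7 UMIs. Among all kept cells, 11 and 24 held that many, so nearly all lay in clusters 8 and 20. Against the other cells of these clusters they were highest in Tac1 (21.02-fold), Pcp4, Rprm, Hopx and Pcp4l1, and all 34 had a Pcp4 UMI. Tac1 encodes the precursor of substance P, and Pcp4 a small calmodulin regulator of neurons. In cluster 8 the 5 cells of each library with the most Fxyd7 held 59 of its 62 noise-only UMIs and 89 of its 244 AAV-Isl1 UMIs. Without them the ratio was 37.6, so its size rests on single cells. Beside the Atp1b2 ratio, the 18 intermediate cell markers summed to 1820.1 and 3339 CPM (6 of 10 measured markers higher, 2 and 2 at 0) and the 18 marginal cell markers to 332 and 377 CPM in cluster 8, and their part in the result was not tested.

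**Figure D5:**
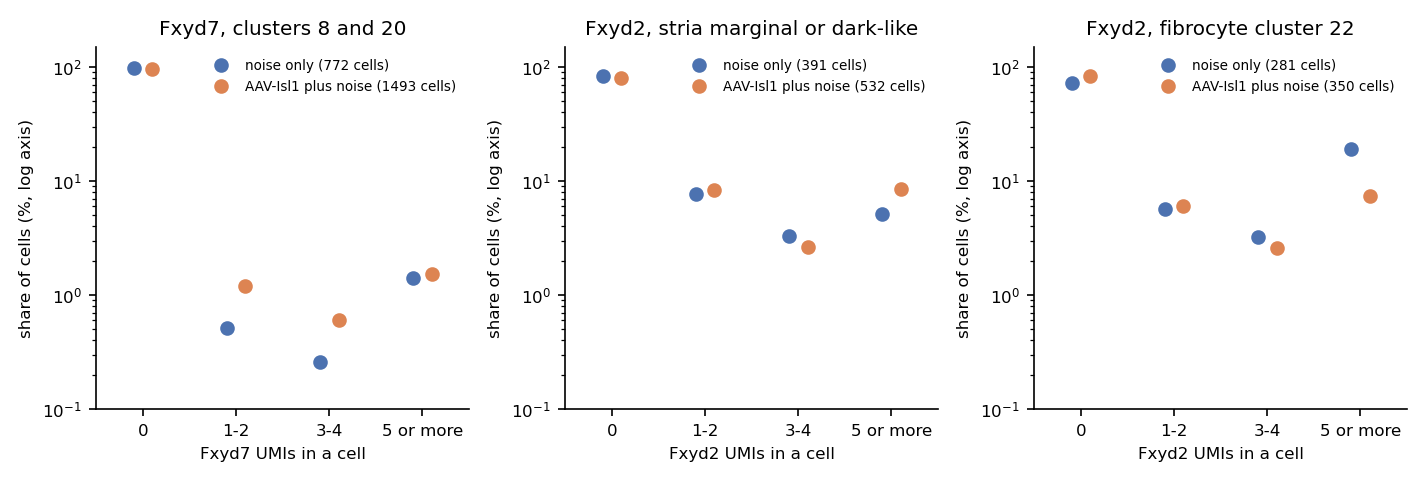
Share of cells (percent, log axis) by their number of Fxyd7 UMIs in clusters 8 and 20 and of Fxyd2 UMIs in marginal cell-like cells and cluster 22, for each library. Most cells hold 0 UMIs, and the cells with at least 5 hold 92.6 and 82.0% of the Fxyd7 UMIs.

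Schwann-like cells, the largest class, kept their main supply. Atp1b3 (926 and 890.1 CPM, ratio 0.961, interval 0.917 to 1.01), Fxyd6 and Fxyd1 (1212 and 1009 CPM, ratio 0.833, interval 0.798 to 0.869) all stayed within the fold. Among the 7 members, 2 of low level were called (background 5.95%): Fxyd2 at 7.81 and 14.2 CPM (ratio 1.82, interval 1.17 to 2.84) and Fxyd7 at 11.1 and 6.67 CPM (ratio 0.603, interval 0.351 to 1.0004). A finer cluster led by Fabp7, Npy and Scn7a (370 and 199 cells, 314 and 142 of them Schwann-like) had another makeup. It held Fxyd1 at 2619.6 and 1248 CPM, Fxyd6 at 231 and 383 CPM and Atp1b3 at 154 and 284 CPM, and so had much Fxyd1 and little Fxyd6 or Atp1b3 for this class. It also carried Fxyd7 at 70.96 and 23.2 CPM, in the noise-only library the highest level of that gene given here, while in the AAV-Isl1 library cluster 8 held more. Without these cells Fxyd1 in the class stood at 1109.7 and 988 CPM, Fxyd6 at 2361 and 2035 CPM and Fxyd7 at 7.001 and 5.94 CPM, so the Fxyd7 gap between the libraries lay mostly in that set.

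Erythroid-like cells had 1 of 6 members called (background 25.0%), Atp1b2 lower at 121 and 74.6 CPM (ratio 0.618, interval 0.456 to 0.844). The call rests on a finer cluster led by Hba-a1 (19 and 94 cells), which held Atp1b1 at 2885 and 2639.6 CPM and Atp1b2 at 718 and 346 CPM. Without it Atp1b2 stood at 34.1 and 34.3 CPM, a ratio of 1.01, and without the 5 cells with the most Atp1b2 the ratio was 1.67. With that set left out, Atp1b1 stood at 150.3 and 149 CPM. The remaining calls lay in clusters known by number. Cluster 17 had Atp1b3 at 105 and 166 CPM (ratio 1.59, interval 1.25 to 2.02) and Fxyd1 at 267 and 412 CPM (ratio 1.54, interval 1.33 to 1.80), 2 of 5 members with a background of 13.9%. When the same percent of doublets was removed from both libraries, the Atp1b3 ratio was 1.47, under the fold. The 33 neuron markers in cluster 17 summed to 441 and 961 CPM (12 of 13 measured markers higher, 2 and 1 at 0). Atp1b1 was called higher in cluster 7 at 54.5 and 84.98 CPM (ratio 1.56, interval 1.09 to 2.27) and in cluster 25, as 1 of 3 members (background 8.18%), at 60.97 and 111 CPM (ratio 1.83, interval 1.01 to 3.404). In both it is a minor subunit beside Atp1b3. With no doublets removed the ratio in cluster 25 was 1.43, under the fold, and the 18 intermediate cell markers there summed to 3016 and 8439 CPM (4 of 5 measured markers higher, 4 and 6 at 0). In cluster 7 the 33 neuron markers summed to 708 and 1248 CPM. The part of these markers in the results for clusters 7, 17 and 25 was not tested. No member was called in macrophage-like cells or in clusters 13 and 14, where 10.7, 6.55 and 7.68% of all genes were.

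Of the other genes of pump and potassium transport, a list of 37 with further pump subunits, ion channels and cotransporters, 64 of 279 measured pairs of gene and population were called, against the same 9.73% of all genes. Over all kept cells 2 of 31 measured were called, both lower: Atp1a4, the testis alpha subunit (1.23 and 0.747 CPM), and Kcnj16, a potassium channel subunit (21.2 and 12.1 CPM). Of the list, Fxyd3, Kcnj10, the potassium channel of intermediate cells, and Slc12a2, the sodium, potassium and chloride cotransporter of marginal cells, were each called in 7 populations, every time higher in the AAV-Isl1 library. Kcnj10 and Slc12a2 were also among the markers that named cell classes. Fxyd3 stood at 56.05 and 198 CPM in pericyte-like cells (ratio 3.53, interval 2.69 to 4.67). Fxyd3 is highest in intermediate cell-like cells, whose 18 markers in pericyte-like cells summed to 7779 and 11843 CPM (9 of 9 measured markers higher, 3 and 2 at 0), and their part in the result was not tested.

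The genes whose pattern was most like that of each member were ranked by Pearson's r of log2(CPM + 1) over 36 points, 18 populations in each of 2 libraries, among 4192 genes. Points of 1 library share its depth and free RNA, and points of 1 population share its clustering, so these values are descriptions. Atp1b1 was most like Cst6 (r = 0.836) and Stmn3 (0.794). Atp1b2 was most like Enpep (r = 0.907), Itpr1 (0.843) and Atp13a5 (0.79), and Atp1b3 most like Glul (r = 0.9), Rapgef3 (0.832) and Fmnl2 (0.832). Fxyd1 was most like Mylip (r = 0.82), Cd63 (0.817) and Mmp14 (0.813). Fxyd2 was most like Etnppl (r = 0.821), Dnase1 (0.691) and Kcne1 (0.688), the last a potassium channel subunit of marginal cells. Fxyd6 was most like Lamb1 (r = 0.912), Prrg3 (0.908) and Sema3b (0.894), and Fxyd7 most like Atxn7l3 (r = 0.814), Zbtb7a (0.797) and Eno2 (0.785), the last a neuronal enolase.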

How the data were processed

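The files hold raw UMI counts, whole numbers per gene and barcode, which the authors deposited. Per the submitters' processing notes they were made with Cell Ranger 5.0 and STAR on mm10 (GRCm38), with Seurat 3.2.2 also named, while the file headers name Cell Ranger 5.0.1. Per the labels, the 10x 3' v3.1 kit was used. The lowest barcode held 500 UMIs.

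A barcode passed with 300 genes or more and no more than 20% mitochondrial UMIs (19953 and 22672 passed). Scrublet in scanpy 1.11.5 (Python 3.11.15), at an expected rate of 0.06, marked 1296 noise-only doublets and 0 in the other library. Its noise-only threshold of 0.194 was then applied to both, which was decided with these numbers in view and took out 1296 (6.50%) and 903 (3.98%). The kept cells were clustered jointly with leidenalg 0.10.2 on 3125 variable genes (2000 chosen per library), 50 principal components, 15 exact neighbours and resolution 1.0, without batch correction, which gave 28 clusters. A name needed 3 markers that were at least 4-fold above other cells and present in 10% of a cluster's cells, with no other class ahead among its 10 leading genes. Clusters 16, 25 and 27 were left unnamed once their leading genes were seen. Cluster 13 met the rule for a list of mesothelial or arachnoid-like lining markers. No name was given from that list or from a list of Otol1 and Tectb epithelium markers. Cluster 20, which met the rule for neurons, is given by number beside cluster 8. A named class was compared from 100 cells in both libraries, an unnamed cluster from 90, which was set with sizes known.

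Per population and library, a gene's UMIs were divided by the population's total and scaled (CPM). Intervals at 95% are conditional binomial for ratios, Poisson for CPM and Clopper-Pearson for shares, all exact, computed with scipy 1.17.1. A count of 0 allows up to 3 counts. A gene was called with at least 50 UMIs and a ratio past 1.5-fold. The scripts were tested on simulated data.

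All 7 members are named. Pathway genes may be named when called or when highest in a population. Some genes that these rules name are not reported here. For each member up to 3 genes with the highest correlation are named, leaving out predicted, mitochondrial, ribosomal protein, hemoglobin and immune receptor genes and those that did not reach 100 CPM in a population of each library. The members, lists and markers were chosen with earlier results of these data known. Alternatives were other filters, doublet settings, clusterings, depths, thresholds, weightings and an equal cell class makeup of both libraries. Chosen after seeing the data were the removal of the same percent of doublets, the erythroid-like set led by Hba-a1, the hair cell-like set, the limit of 5 UMIs per cell and the split of cluster 5.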

Additional observations from a re-analysis of the deposited data

How the results depend on the processing

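No paired analysis was possible because each library pools 5 mice and its cells cannot be split by animal. Over all kept cells, 1 of 7 members was called without the 5 cells of each library with the most UMIs of the gene (0 otherwise). Within populations, 13 of 90 member values were called with no doublets removed (25 of 95 with removal), 16 of 74 with at least 200 UMIs and 7 of 95 past 2-fold. For the pathway list, 42 of 261 were called with no doublets removed (64 of 279 with removal). A member was found in at least 25% of the cells in 68 of 252 values at 1000 UMIs per cell and in 31 of 252 at 500 UMIs. Atp1b2 in erythroid-like cells turned from a ratio of 0.618 to 1.67 without those 5 cells and 1.01 without the set led by Hba-a1, and Fxyd7 in cluster 20 from 0.654 to 1.496 as a mean over cells. Fxyd7 in cluster 8 ranged from 1.56 to 37.6 and Atp1b2 there from 1.27 to 4.47. Cluster 17 gave no value with no doublets removed or at resolutions 0.5 and 2.0, and osteoblast-like Fxyd6 and cluster 20 Fxyd7 none at 0.5. The cause of these changes was not tested.

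Both groups are single pooled libraries, so ear, surgery, virus and library preparation cannot be told apart, and intervals leave out the spread between animals. More barcodes were deposited than cells loaded. Kept cells were shallow, with 47.6 and 45.1% under 1000 UMIs, and a difference of Fxyd7 or Fxyd2 in most populations was not detectable at this depth.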
